A study of Mus musculus with 16 samples.

Results

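The 10 Nkx2 and Nkx6 homeobox genes Nkx2-1, Nkx2-2, Nkx2-3, Nkx2-4, Nkx2-5, Nkx2-6, Nkx2-9, Nkx6-1, Nkx6-2 and Nkx6-3 were taken by name from the 26180 genes with a curated RefSeq start site in the mouse genome (GRCm38). Each gene was described by the ChIP-seq peaks that fell within 2500 bp either side of its start site, over its body, and in the Polycomb domain around it. Chromatin of mouse embryonic stem cells (ESCs) was precipitated with antibodies to H3K4me3, H3K27me3 or Suz12 in 2 cultures of the R1 MycER line, which carries a Myc protein fused to the oestrogen receptor. LIF-ESCs grew with leukaemia inhibitory factor (LIF, 100 units/ml). Myc-ESCs grew without LIF and with 50 nM 4-hydroxytamoxifen (OHT), the ligand that switches the fusion protein on. The fusion gene was present in both cultures, and the line is 1 clone, so that an effect of Myc activity cannot be told apart from LIF withdrawal, from OHT itself, or from a property of that clone. The 16 libraries (2 for each culture and antibody, with 4 inputs) were deposited as 6 peak lists, 1 for each culture and antibody, so no value below has a replicate spread and no difference between cultures could be tested.

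Nkx2 and Nkx6 proteins are homeodomain transcription factors that set cell identity in the embryo. Nkx2-2, Nkx2-9, Nkx6-1 and Nkx6-2 pattern the ventral neural tube under Hedgehog signalling, Nkx2-1 is needed for lung, thyroid and ventral forebrain, Nkx2-5 for the heart, Nkx2-3 for spleen and gut mesenchyme, and Nkx2-2 and Nkx6-1 also for pancreatic beta cells. In ESCs such genes are typical bivalent genes. H3K4me3 marks their promoters as at active genes, while Polycomb repressive complex 2 (PRC2), of which Suz12 is a core subunit, deposits the repressive mark H3K27me3, mostly over CpG islands.

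The promoters (250 bases before to 50 bases after the start site, RefSeq, GRCm38.p6) of 8 of the 10 genes were at hand, and Nkx2-6 and Nkx6-3 were not among them. The 4 printed here cover the range of CpG content, the feature that CpG islands are defined by, and those of Nkx2-1 and Nkx2-2 are the pair at which H3K4me3 appeared in Myc-ESCs. CpG dinucleotides are in capitals.
Nkx2-5 promoter, chr17:26841516-26841815, minus strand: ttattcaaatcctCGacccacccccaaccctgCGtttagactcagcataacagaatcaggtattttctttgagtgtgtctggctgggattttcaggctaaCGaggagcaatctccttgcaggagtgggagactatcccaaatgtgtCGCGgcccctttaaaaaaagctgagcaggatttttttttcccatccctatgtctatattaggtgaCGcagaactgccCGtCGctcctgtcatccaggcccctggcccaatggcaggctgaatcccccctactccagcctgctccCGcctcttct
Nkx2-1 promoter, chr12:56536859-56537158, minus strand: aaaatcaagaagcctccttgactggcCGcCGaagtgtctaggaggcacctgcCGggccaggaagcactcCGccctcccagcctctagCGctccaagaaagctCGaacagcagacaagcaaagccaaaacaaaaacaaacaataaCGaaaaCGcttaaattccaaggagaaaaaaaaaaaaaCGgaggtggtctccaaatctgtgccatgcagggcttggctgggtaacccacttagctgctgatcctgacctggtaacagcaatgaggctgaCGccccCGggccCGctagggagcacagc
Nkx2-2 promoter, chr2:147186353-147186652, minus strand: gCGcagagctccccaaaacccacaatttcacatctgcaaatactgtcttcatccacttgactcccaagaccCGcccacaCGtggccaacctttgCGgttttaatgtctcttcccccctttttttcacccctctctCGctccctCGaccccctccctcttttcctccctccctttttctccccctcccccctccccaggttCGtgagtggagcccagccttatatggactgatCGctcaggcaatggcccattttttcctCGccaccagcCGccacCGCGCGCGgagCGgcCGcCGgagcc
Nkx6-1 promoter, chr5:101664662-101664961, minus strand: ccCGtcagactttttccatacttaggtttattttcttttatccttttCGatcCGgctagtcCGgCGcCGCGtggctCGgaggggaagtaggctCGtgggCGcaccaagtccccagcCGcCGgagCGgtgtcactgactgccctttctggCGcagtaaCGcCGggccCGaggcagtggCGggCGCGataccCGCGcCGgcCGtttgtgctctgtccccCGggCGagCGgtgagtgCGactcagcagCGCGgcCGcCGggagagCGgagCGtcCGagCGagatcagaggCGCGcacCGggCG
The Nkx2-5 promoter held 9 CpGs, that of Nkx2-1 12, that of Nkx2-2 17 and that of Nkx6-1 40, with a median of 16 over the 8 promoters against 7 over 32851 mouse promoters. Around the start sites of all 10 genes the windows of 2500 bp either side held a median of 216 CpGs, against 92 over all genes and 157 over the 2822 genes with a Suz12 peak in both cultures. Nkx6-2 had the most, with 328, and Nkx2-6 (88) and Nkx6-3 (83) were the only members below the median of all genes. The E-box CACGTG, the motif bound by Myc with Max, was searched on both strands of the promoters and was found in 1 of the 8, that of Nkx2-2, where it reads caCGtg in the sequence above, and in 7.15% of all promoters. TNAAGTG, the core of the Nkx2 binding motif, was likewise present in that of Nkx2-2 only among the 8, and in 11.5% of all promoters. The matches did not overlap each other, and they describe the sequence and show no binding.

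In LIF-ESCs, Suz12 was at the start sites of 9 of the 10 genes (12.1% of all genes), H3K4me3 at 8 (62.2%) and H3K27me3 at 5 (3.82%). In Myc-ESCs, Suz12 and H3K4me3 were at all 10 (14.6% and 63.3% of all genes) and H3K27me3 at 9 (10.7%). Over the gene bodies the counts were near those at start sites, with Suz12 at 10 genes in each culture (12.4% and 15.2% of all genes), H3K4me3 at 9 and then 10 (64.8% and 65.8%), and H3K27me3 at 5 and then 9 (4.04% and 11.1%). The genes were therefore Suz12-bound in both cultures, and the count that moved most was that of H3K27me3. Peaks of all 3 antibodies fell within 2500 bp of the start site, whether or not they overlapped, at 2 genes in LIF-ESCs, Nkx2-6 and Nkx6-1 (2.77% of all genes). In Myc-ESCs they did so at 9 (8.86%), the exception being Nkx6-3. With 1000 bp either side the counts were 0 and 5, and the share of all genes in that narrower window was not computed. Across the whole genome the Myc-ESC H3K27me3 list held 16717 peaks and the LIF-ESC list 3120, and sequencing depth is not in the lists, so what the longer list contributes to the H3K27me3 counts was examined below with lists of equal length.

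**Figure D1:**
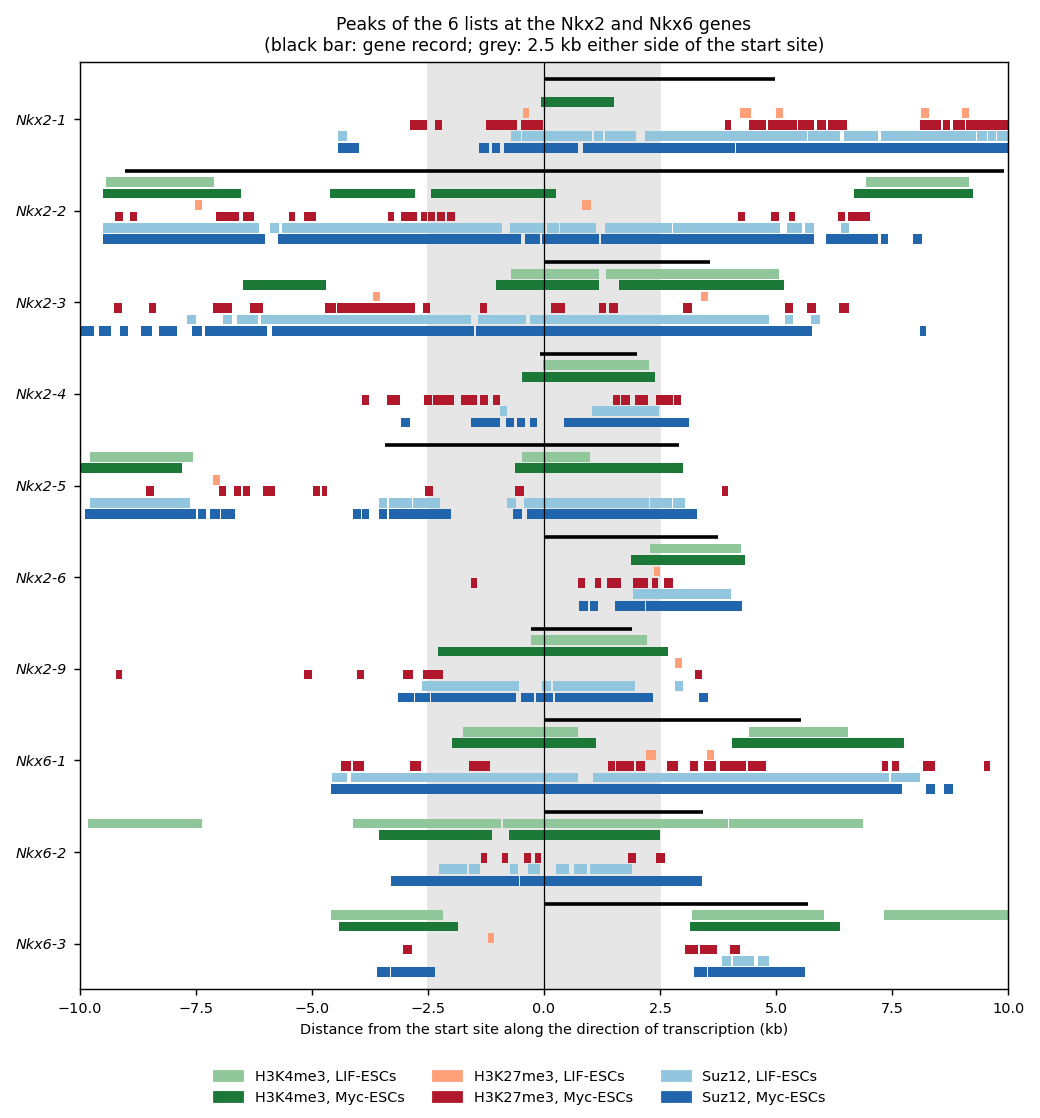
Peaks of the 6 lists around the start sites of the 10 genes, by distance in kb along the direction of transcription. Each bar is 1 peak, pale in LIF-ESCs and dark in Myc-ESCs, the black line is the gene record and the grey band the 2500 bp either side of the start site. H3K27me3 peaks are short and numerous in Myc-ESCs, and 81.3% of their bases within 10 kb of the genes lie under Suz12.

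H3K27me3 covered a median of 68.5 bp of the start-site window (2500 bp either side) of the 10 genes in LIF-ESCs, as against 831.5 bp in Myc-ESCs, and 831 bp and 8354 bp summed over the genes. It covered more bases in Myc-ESCs at 9 of the 10 genes, as it did at 90.8% of all genes with any covered base. The 5 genes whose start sites lacked H3K27me3 in LIF-ESCs, Nkx2-3, Nkx2-4, Nkx2-5, Nkx2-9 and Nkx6-2, all had a peak in Myc-ESCs, where 7.95% of all genes without the mark in LIF-ESCs gained one. All 5 carried Suz12 in both cultures, and of the 2026 genes in the same starting state (Suz12 in both cultures, no H3K27me3 in LIF-ESCs) 64.4% gained H3K27me3, so that the gain at these genes was largely shared with other Suz12-bound genes. Nkx6-3 alone had a start-site peak in LIF-ESCs and none in Myc-ESCs (0.822% of all genes without the mark in Myc-ESCs).

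Nkx2-4, a close relative of Nkx2-1, had the widest H3K27me3 at its start site, with no base covered in LIF-ESCs but 1922 bp in Myc-ESCs, in 10 separate peaks with a top score of 216. The score is the peak caller's minus 10 times log10 of its p-value, at least 50 for every peak deposited. In LIF-ESCs the nearest H3K27me3 peak was 100042 bp away, within the Nkx2-2 domain on the same chromosome. Nkx6-2, which acts in ventral neural tube and oligodendrocyte development, was the member farthest from the mark in LIF-ESCs, with its nearest peak 467324 bp away. In Myc-ESCs it had 6 peaks over 814 bp, with a top score of 73.1. These were all low-scoring peaks, and none was kept when the lists were cut to equal length.

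Nkx2-3 went from 0 to 849 bp at the start site, with a top score of 111. Nkx2-9, a ventral neural tube gene, went from 0 to 317 bp in a single peak with a score of 145. Nkx2-5, the cardiac regulator, went from 0 to 301 bp with a top score of 90.7. The mark thus filled 17.0% of the window at Nkx2-3, 6.34% at Nkx2-9 and 6.02% at Nkx2-5 in Myc-ESCs.

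Among the 4 genes marked in both cultures, Nkx2-1 went from 144 to 1285 bp, and its top score from 59.7 to 264. Nkx6-1, the beta cell and motor neuron progenitor factor, went from 215 to 1177 bp and from a top score of 75.7 to 188. At Nkx2-6, a pharyngeal and cardiac gene, H3K27me3 went from 140 to 1181 bp and from 59.2 to 140 in score. Nkx2-2 had the smallest difference of the 4, from 195 to 508 bp and from 67.2 to 82.8. Every LIF-ESC peak at these start sites had a score under 100, as did 89.1% of all LIF-ESC H3K27me3 peaks, while over the body of Nkx2-1 the top score in that culture was 116. At Nkx6-3, a stomach gene, the picture was mixed. Its single LIF-ESC peak of 137 bp lay upstream and had a score of 61.5, and in Myc-ESCs the window was empty while 3 peaks over 873 bp, with a top score of 155, lay inside the gene body, where LIF-ESCs had none.

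**Figure D2:**
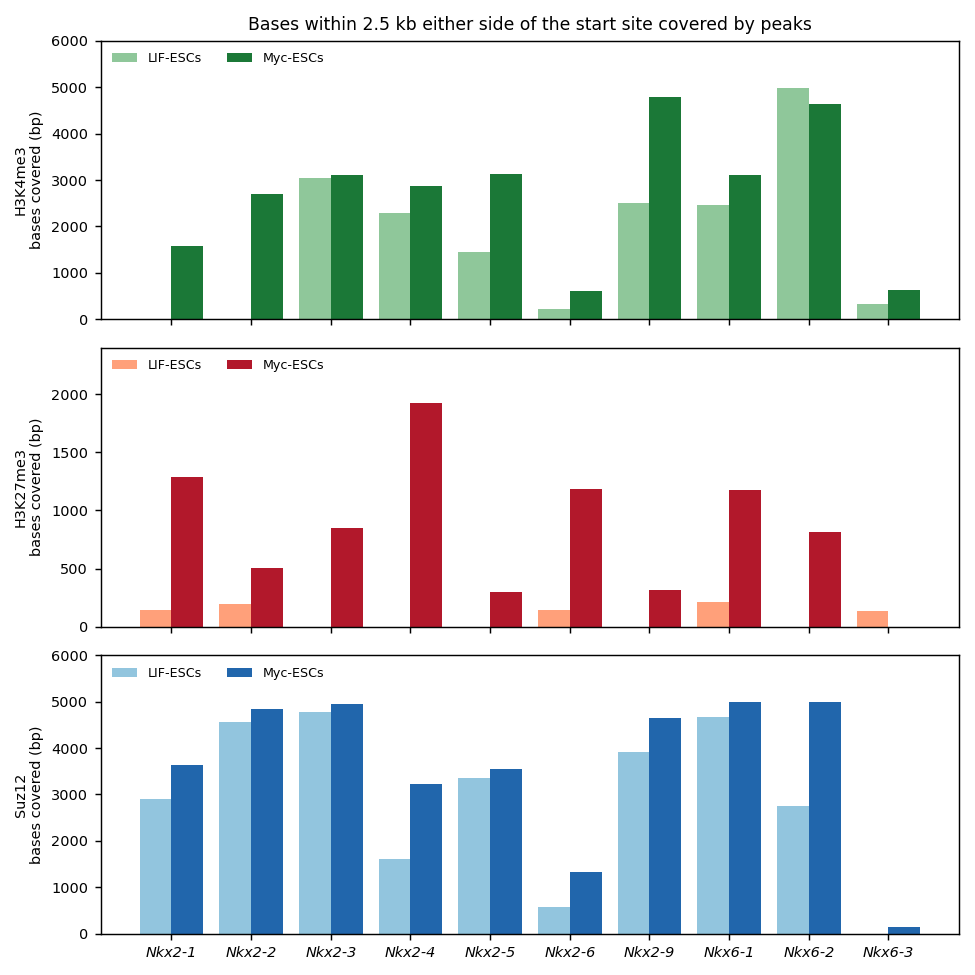
Bases within 2500 bp either side of the start site covered by peaks at each of the 10 genes, with a panel for each antibody and pale (LIF-ESCs) and dark (Myc-ESCs) bars. A gene without a bar had no covered base. There is 1 list for each culture and antibody, so the bars carry no error. H3K27me3 reaches 1922 bp at Nkx2-4 in Myc-ESCs and at most 215 bp, at Nkx6-1, in LIF-ESCs.

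With the lists cut to the same number of peaks (the 3120 highest-scoring H3K27me3 peaks of each culture), the start sites of 5 genes were marked in LIF-ESCs and those of 6 in Myc-ESCs (3.82% and 3.53% of all genes). The 6 were Nkx2-1, Nkx2-3, Nkx2-4, Nkx2-6, Nkx2-9 and Nkx6-1. Covered bases summed to 831 bp and 3862 bp, with more in Myc-ESCs at 6 genes and fewer at 2, Nkx2-2 and Nkx6-3 (more at 60.9% of all genes with any covered base). Nkx2-1 (144 and 1148 bp), Nkx2-4 (0 and 987 bp) and Nkx6-1 (215 and 812 bp) kept the widest coverage, and Nkx2-5 and Nkx6-2 had no H3K27me3 in either culture. The number of marked genes was therefore close to equal between cultures at equal list length, while the bases covered differed. The cut equalised the number of peaks and not their bases. It kept peaks scoring at least 103.8 in Myc-ESCs and at least 50.01 in LIF-ESCs, and the part of this selection in the difference in bases was not tested. When peaks scoring under 100 were left out, 0 genes were marked in LIF-ESCs and the same 6 in Myc-ESCs (0.458% and 3.73% of all genes), a limit that removed 89.1% of all LIF-ESC and 79.8% of all Myc-ESC H3K27me3 peaks.

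The 3 antibodies differed in whether their peaks covered the start site itself. H3K27me3 covered none of the 10 in either culture, as at nearly all genes (0.0993% and 0.413% of all genes had one covered), while Suz12 covered 5 and then 7 of them (4.77% and 7.14%) and H3K4me3 6 and then 8 (59.1% and 60.3%). Of the 44 Myc-ESC H3K27me3 peaks in the windows, 25 lay upstream of the curated transcripts, 13 within introns, 4 downstream, and 2 touched an exon. The gene records extend past these transcripts at some genes, and 23 of the 44 touched the record. Exons made up 21.1% of the windows but 4.90% of the H3K27me3 bases in Myc-ESCs, against 25.1% of the Suz12 bases and 29.9% of the H3K4me3 bases. In Myc-ESCs, H3K27me3 covered 11.3% of the bases within 500 bp of the 10 start sites, 8.86% from 500 to 1000 bp, and 21.1% from 1000 to 2500 bp. Over the 3708 genes with Suz12 in the window in Myc-ESCs the shares were 3.78%, 7.90% and 9.82%, so that the Nkx genes had more H3K27me3 than those genes mainly in the nearest and the farthest range, with no test made.

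The H3K27me3 peaks were also poorer in CpG than those of the other antibodies. Within 10 kb of the 10 genes, the 124 Myc-ESC H3K27me3 peaks had a median of 1.09 CpGs per 100 bp, against 2.42 in the 69 Suz12 peaks and 4.01 in the 21 H3K4me3 peaks. The 17 LIF-ESC H3K27me3 peaks had a median of 0.93. Over the whole Myc-ESC lists the medians were 0.82, 2.99 and 2.53, so the low CpG content was shared by H3K27me3 peaks elsewhere. Base composition can change how well a fragment is amplified and sequenced, and its part in the placement was not tested.

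The 3 sequences below are examples of peaks with few and many CpGs (GRCm38, CpG in capitals). The first is the centre of the highest-scoring H3K27me3 peak near Nkx2-3, a peak of 1684 bp with a score of 1121 that lies upstream of the gene. The second is the peak nearest to the Nkx6-2 start site, whole. The third is the centre of the highest-scoring peak at Nkx6-1, a peak of 575 bp with a score of 392 in intron 2.
Nkx2-3 upstream peak, chr19:43608582-43608821, plus strand: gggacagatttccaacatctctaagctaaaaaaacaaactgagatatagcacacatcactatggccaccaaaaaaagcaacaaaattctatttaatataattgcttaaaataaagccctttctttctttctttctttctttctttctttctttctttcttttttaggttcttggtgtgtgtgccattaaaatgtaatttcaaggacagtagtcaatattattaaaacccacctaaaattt
Nkx6-2 promoter peak, chr7:139582855-139582997, minus strand: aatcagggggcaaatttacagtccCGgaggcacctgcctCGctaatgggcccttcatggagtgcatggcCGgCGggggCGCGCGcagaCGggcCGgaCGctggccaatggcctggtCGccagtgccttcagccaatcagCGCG
Nkx6-1 intron 2 peak, chr5:101660524-101660763, minus strand: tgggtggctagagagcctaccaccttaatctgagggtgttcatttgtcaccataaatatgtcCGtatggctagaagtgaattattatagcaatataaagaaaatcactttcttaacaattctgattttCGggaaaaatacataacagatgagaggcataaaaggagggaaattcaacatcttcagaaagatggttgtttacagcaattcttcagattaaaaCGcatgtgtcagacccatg
The stretch from Nkx2-3 had 0 CpGs, a GC content of 30.0% and a run of the tetramer cttt, and that from Nkx6-1 had 3 CpGs and 36.7% GC. The Nkx6-2 stretch of 143 bp held 13 CpGs and 67.1% GC, and its score was 54.8. Over their whole length the Nkx2-3 and Nkx6-1 peaks held 1.25 and 1.04 CpGs per 100 bp, near the median of the 124 peaks. The reference marks 19.4% of the Nkx2-3 peak and 14.3% of the Nkx6-1 peak as repeats, and 0% of the Nkx6-2 peak.

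**Figure D3:**
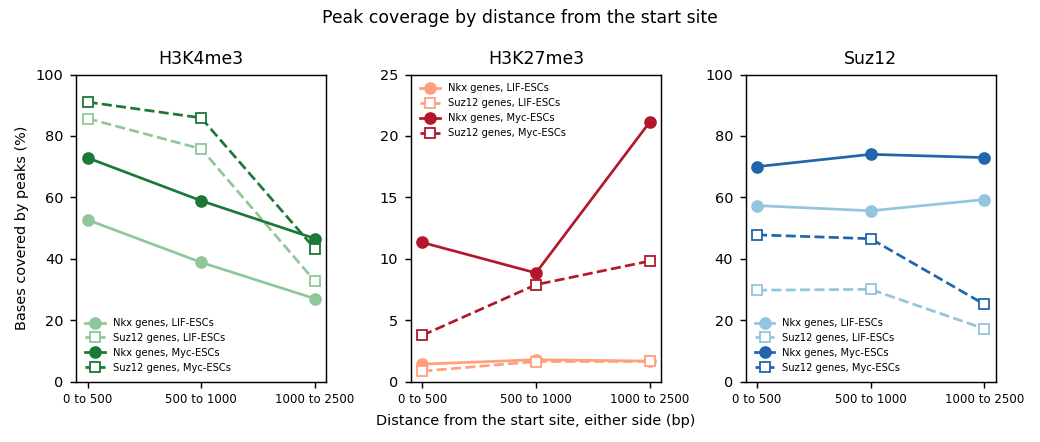
Share of bases (%) covered by peaks in 3 ranges of distance from the start site, both sides together, with a panel for each antibody (the H3K27me3 axis ends at 25%). Filled circles are the 10 Nkx genes and open squares the 3708 genes with Suz12 in the window in Myc-ESCs, pale in LIF-ESCs and dark in Myc-ESCs. At the Nkx genes Suz12 stays level with distance, while H3K27me3 in Myc-ESCs is highest, at 21.1%, from 1000 to 2500 bp.

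H3K4me3 was absent at the start sites of Nkx2-1 and Nkx2-2 in LIF-ESCs and present at both in Myc-ESCs. These were the only members without the mark, and 6.2% of all genes without it in LIF-ESCs gained it, or 66.2% of the 210 such genes that had Suz12 in both cultures. At Nkx2-1 the Myc-ESC peak ran from 55 bp upstream (-55) to 1517 bp downstream of the start site with a score of 59.2, near the lowest a peak can have, and was not kept at a score of 100. The peak at Nkx2-2 ran from -2439 to 265 bp with a score of 108. Over the whole Nkx2-2 record there were 2 H3K4me3 peaks in LIF-ESCs, with 4149 bp, and 4 in Myc-ESCs, with 9604 bp. The gene record extends upstream of the curated start site, and when the 5′ end of the record was taken as the start, Nkx2-2 counted as marked in both cultures.

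At the other genes H3K4me3 was present in both cultures, and none lost it (3.3% of all genes without it in Myc-ESCs). It covered more bases in Myc-ESCs at 7 of the 10 with 1000 bp either side (share over all genes not computed). With 2500 bp either side it did so at 9 of the 10 (65.3% of all genes with any covered base). Nkx2-9 had the largest difference of the genes marked in both, from 2504 to 4794 bp with scores of 217 and 689. Nkx2-5 went from 1461 to 3133 bp, with scores of 104 and 250. The change was small at Nkx2-3 (3040 and 3106 bp), Nkx2-4 (2287 and 2863 bp) and Nkx6-1 (2467 and 3102 bp), and the top score was lower in Myc-ESCs at Nkx2-4 (546 and 279) and at Nkx2-3 (249 and 146). Nkx6-2 was the exception. Its start-site peak was 4854 bp long with a score of 3100 in LIF-ESCs and 3260 bp long with a score of 583 in Myc-ESCs, and the covered bases were 4974 and 4643 bp. Nkx2-6 (223 and 620 bp) and Nkx6-3 (330 and 640 bp) had only the edge of a peak in the window. The Nkx2-6 peak covered the second and last exon, and the Nkx6-3 peak lay upstream of the gene over the start of the gene Gm15816. For Nkx2-6 and Nkx6-3 the mark was thus not at the annotated start site.

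Suz12 covered more bases in Myc-ESCs at all 10 genes (79.4% of all genes with any covered base). It did so at 10 with lists of equal length and at 8 with 1000 bp either side. For these 2 settings the share over all genes was not computed. With 2500 bp either side the median went from 3133 to 4141 bp of the window. The largest differences were at Nkx6-2, from 2746 bp in 7 peaks to 4992 bp in 2 peaks with the top score going from 438 to 3100, and at Nkx2-4, from 1601 to 3217 bp with top scores of 793 and 3100. At Nkx6-2, LIF-ESCs thus had broken, lower-scoring Suz12 peaks, and Myc-ESCs had near-continuous Suz12 and a shorter, lower-scoring H3K4me3 peak. Scores are p-values and not signal levels, and depth is unknown. The neighbouring genes Inpp5a (1980 and 1182) and Cfap46 (1496 and 1289), without Suz12 in either culture, also had lower H3K4me3 scores in Myc-ESCs. Nkx6-1 was covered over 93.5% of the window in LIF-ESCs and over all of it, 100%, in Myc-ESCs, and Nkx2-2 (4559 and 4839 bp) and Nkx2-3 (4766 and 4954 bp) were nearly so in both. Nkx2-1 (2908 and 3631 bp), Nkx2-5 (3358 and 3550 bp) and Nkx2-9 (3905 and 4651 bp) were in between. Nkx2-6 (582 and 1327 bp) and Nkx6-3 (0 and 144 bp) had least, and Nkx6-3 was the member that gained a start-site peak (4.33% of all genes without Suz12 in LIF-ESCs), and none lost Suz12 (1.49% of all genes without it in Myc-ESCs).

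Suz12 peaks were chained over gaps of up to 5000 bp into domains, which show how far Polycomb binding extends around each gene. The domains at the 10 genes had a median length of 9140 bp in LIF-ESCs, where that of all 3714 domains was 1070.5 bp, and of 10050.5 bp in Myc-ESCs, where that of all 4497 was 1379 bp. Those at Nkx2-1 (22716 and 24197 bp), Nkx2-3 (20079 and 23934 bp) and Nkx2-2 (16076 and 18898 bp) were the longest. Of the LIF-ESC domains, 99.2% were shorter than that at Nkx2-1 and 48.7% shorter than that at Nkx6-3, the shortest at 1020 bp. The genes thus spanned the range from very long domains to ordinary ones. Nkx2-5 (12829 and 13563 bp) and Nkx6-1 (12669 and 13390 bp) followed, then Nkx2-9 (5611 and 6673 bp), Nkx6-2 (4163 and 6711 bp) and Nkx2-4 (3431 and 6201 bp), and Nkx2-6 had 2118 and 3529 bp. Every domain was longer in Myc-ESCs, that of Nkx6-3 at 3648 bp as the sum of 2 separate domains, and the relative difference was largest at the 4 genes with the shortest domains in LIF-ESCs, Nkx6-3, Nkx2-6, Nkx2-4 and Nkx6-2.

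**Figure D4:**
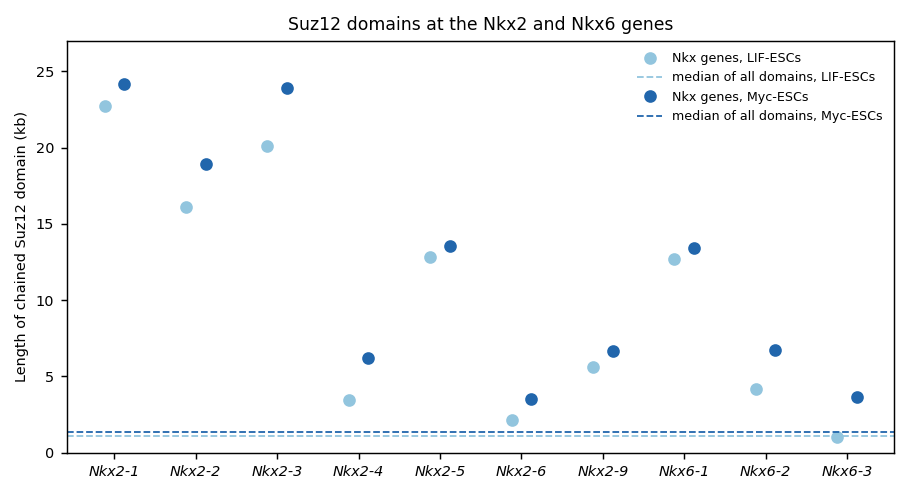
Length in kb of the chained Suz12 domain at each of the 10 genes in LIF-ESCs (pale points) and Myc-ESCs (dark points). Dashed lines are the medians over all Suz12 domains of each culture, 1070.5 and 1379 bp. All points but that of Nkx6-3 in LIF-ESCs, at 1020 bp, lie above their line.

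The number of H3K27me3 peaks inside these domains was higher in Myc-ESCs at every gene, from 9 to 28 at Nkx2-1, 3 to 20 at Nkx2-3, 2 to 19 at Nkx2-2, 2 to 16 at Nkx6-1 and 0 to 11 at Nkx2-4, where the whole lists held 3120 and 16717 peaks. Within 10 kb of the 10 genes, 89.7% of H3K27me3 bases fell under Suz12 in LIF-ESCs, and 81.3% did so in Myc-ESCs, against 45.2% and 48.8% over the whole lists. Of the H3K4me3 bases there, 50.8% fell under Suz12 in LIF-ESCs but 88.5% in Myc-ESCs, where the whole lists had 3.97% and 7.17%. Taken over the 10 genes together, H3K4me3 and Suz12 thus shared more ground in Myc-ESCs, and the share was not computed gene by gene. Long LIF-ESC H3K4me3 peaks outside Suz12 at Nkx6-2 (2881 and 2465 bp) and Nkx6-3 (4104 bp) lower the LIF-ESC share. They had no counterpart in Myc-ESCs. The share of H3K27me3 within H3K4me3 peaks was lower, 15.6% and 26.7%, near the 26.6% and 28.7% of the whole lists.

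Nkx2-4 and Nkx2-2 lie 101057 bp apart on chromosome 2, and Nkx2-1 and Nkx2-9 lie 76376 bp apart on chromosome 12. Neither pair shared a Suz12 domain in either culture. Between Nkx2-4 and Nkx2-2, leaving out the 15000 bp next to each start site, there was no peak of any of the 6 lists. Counted in the same way, between Nkx2-1 and Nkx2-9 there was 1 H3K4me3 peak in each culture and no Suz12 or H3K27me3 peak. Across the chromosome 12 locus with the neighbouring Pax9, a paired-box gene, Suz12 formed separate domains at Nkx2-1, Nkx2-9 and Pax9. The Pax9 domain was 14545 bp long in LIF-ESCs, with a separate domain of 1306 bp beside it, and these were joined into 1 domain of 22927 bp in Myc-ESCs. H3K27me3 peaks over the chromosome 12 locus numbered 17 and 68, and over the chromosome 2 locus 2 and 32, where the whole lists held 3120 and 16717.

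**Figure D5:**
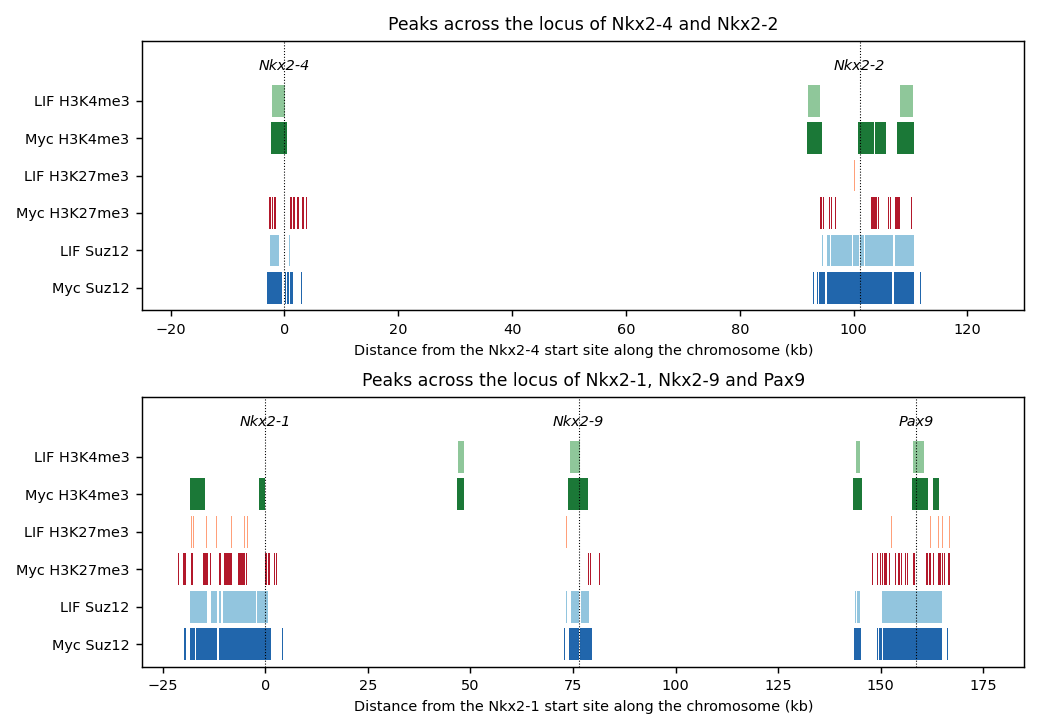
Peaks of the 6 lists across the Nkx2-4 and Nkx2-2 locus (upper) and the Nkx2-1, Nkx2-9 and Pax9 locus (lower), by distance in kb from the start site of the gene at 0. Rows are the lists, pale in LIF-ESCs and dark in Myc-ESCs, and dotted lines are start sites. Suz12 forms a separate domain at each gene, with no Suz12 peak between the 2 members of a pair beyond 15000 bp of each start site.

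Some of the members' Suz12 domains also held the start of another gene. The Nkx2-1 domain held the start of Sfta3-ps in both cultures, and the Nkx2-2 domain those of the antisense gene Nkx2-2os and of 6430503K07Rik, while 1 of the Nkx6-3 domains in Myc-ESCs held that of Gm15816. At Sfta3-ps, H3K27me3 covered 479 bp in LIF-ESCs as against 3173 bp in Myc-ESCs, more than at Nkx2-1 itself, and no H3K4me3 was called. At 6430503K07Rik it went from 195 to 1131 bp, and at Nkx2-2os from 195 to 153 bp. The start of 1700092C10Rik lies 41 bp from that of Nkx2-6 on the other strand, and its marks cannot be told apart from those of Nkx2-6. The other nearest neighbours were mostly outside Polycomb chromatin. Mbip, Got1, Xrn2, Bnip1, Gm17382, Inpp5a, Cfap46 and Gpat4 had H3K4me3 and neither Suz12 nor H3K27me3 in each culture.

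The other genes of the same programmes, given as counts with no test, had more marked genes in Myc-ESCs as well. In the ventral neural tube and Hedgehog list of 20 genes, 6 of the 9 without H3K27me3 gained it, among them Olig2, a motor neuron and oligodendrocyte regulator, and Pax7, a dorsal neural tube gene, and 11 and then 15 had all 3 marks. Beside this, 64.4% of the genes with Suz12 in both cultures and no H3K27me3 in LIF-ESCs gained it. Smo, which gained the mark, and Gli1 and Gli2, which did not, had no Suz12 in LIF-ESCs and are outside that set. In the same list Neurog3, a pancreatic endocrine regulator, went from 270 to 0 bp of H3K27me3, and Gsx2 had H3K4me3 in LIF-ESCs and not in Myc-ESCs. The Hedgehog ligand Shh, already marked, went from 306 to 1490 bp, the floor plate gene Foxa2 from 509 to 1223 bp, and Gli1 had no H3K27me3 and no Suz12 in either culture. Of 16 heart, lung, thyroid and pancreas genes, 8 of the 10 without H3K27me3 gained it, such as Pdx1 (0 and 422 bp), the pancreas regulator, and Isl1 (0 and 463 bp), and 5 and then 12 had all 3 marks.

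Set beside other homeobox families, the Nkx genes went from 2 to 9 of 10 genes with all 3 marks, the Dlx genes from 2 to 6 of 6 and the Irx genes from 2 to 5 of 6. With lists of equal length the Nkx counts were 2 and 6, and the other families were not recounted. H3K27me3 was gained by 3 of 3 unmarked Dlx genes and 3 of 3 Irx genes, and median coverage in Myc-ESCs was 831.5 bp at the Nkx genes, 822.5 bp at Dlx and 440.5 bp at Irx. ESC marker genes (Pou5f1, Sox2, Nanog, Klf4, Esrrb, Zfp42, Tdgf1 and Dppa4) had H3K4me3 at 8 of 8 in both cultures, H3K27me3 at 0 and then 1, Esrrb, and Suz12 at 1 and then 2, with Klf4 going from 0 to 3264 bp of Suz12. Of 8 markers of differentiated cell types (Gata4, Gata6, Sox17, T, Eomes, Cdx2, Pax6 and Hand1), all had H3K4me3 and Suz12 in both cultures and 5 and then 8 had H3K27me3. The files hold no expression, so the share of differentiated cells in either culture was not tested.

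The genes whose coverage over the 6 lists was nearest to the median of the members were Trhde, Gm15723, Barx2, Gm33293 and Zeb2os, by Euclidean distance in covered bases (462 to 649 bp). Barx2, itself a homeobox gene, had H3K27me3 over 0 and 778 bp, Suz12 over 2934 and 4000 bp and H3K4me3 over 2247 and 3371 bp. Among the members Nkx2-5 was nearest to that median, at 938 bp, and Nkx2-6 (4781 bp) and Nkx6-3 (5862 bp) were farthest.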

How the data were processed

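Peak lists were used as deposited by the authors, 1 for each culture and antibody. Per the labels and the study's methods, the authors aligned reads to GRCm38 with Bowtie2 2.2.3 and called peaks with MACS 1.4.2. The deposited score is minus 10 times the log10 of the peak caller's p-value. How the 2 libraries for each culture and antibody were combined is not given in the sources used here. The lists hold no read counts, so depth is unknown and no interval or test could be computed. A peak was assigned to a gene where at least 1 base fell within 2500 bp of a curated RefSeq start site (45756 transcripts, 26180 genes), and bases covered were counted in the 5001 bp around the first start site. Suz12 peaks with gaps of up to 5000 bp were chained. Named genes were the 10 members, their neighbours, fixed gene lists and the 5 genes nearest to the members' median, and some genes and lists among them are not reported here. Members and lists were chosen with earlier results of these data known. Interval code was tested on simulated data (Python 3.11.15, pandas 2.3.3, numpy 2.4.6, pysam 0.24.0, matplotlib 3.10.9). Alternatives tried were a minimum score of 100, lists of equal length, windows of 1000 and 5000 bp, an overlap of 100 bp, the 5′ end of the gene record, and gaps of 1000 and 10000 bp.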

Additional observations from a re-analysis of the deposited data

How the results depend on the processing

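No paired analysis was possible because each culture and antibody has 1 deposited list without replicate values, and no replicate was left out for the same reason. Of 154 recomputed summary values, 117 stayed within 1.5 times the value reported and 37 moved by more. These values are counts and lengths of 1 culture or counts of gains, so they could not show a reversal of direction. Results are given for LIF-ESCs and then Myc-ESCs.

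At a minimum score of 100, H3K27me3 was at 0 start sites and 1 gene body in LIF-ESCs, its covered bases were 0 (sum) and 0 (median) against 4067 and 299 in Myc-ESCs, and genes with all 3 marks numbered 0 and 5. With lists of equal length, the Myc-ESC sum was 3862 bp and the median 299 bp. In that setting 3 genes gained H3K27me3 (Nkx2-3, Nkx2-4 and Nkx2-9) and 2 lost it (Nkx2-2 and Nkx6-3). With 1000 bp either side, H3K27me3 was at 2 start sites in LIF-ESCs, all 3 marks were at 0 and 5, summed bases were 9164 and 13190 for H3K4me3, 324 and 2021 for H3K27me3 and 11308 and 14413 for Suz12, and medians were 1152.5 and 1551.5, 0 and 99.5, and 1531.5 and 1810.5. With 5000 bp either side, 3 genes gained H3K27me3, all 3 marks were at 5 genes in LIF-ESCs, sums were 30113 for H3K4me3 in LIF-ESCs, 1694 and 18288 for H3K27me3 and 50332 and 63915 for Suz12, and H3K27me3 medians were 149.5 and 1419. With gaps of up to 1000 bp, median Suz12 domains were 5375.5 and 6692 bp. The narrower and wider windows change sums by their construction. The cause of the other changes was not tested. Among the counts in these settings, only those of H3K27me3 start sites by score and at equal length have a share over all genes, given above. In each setting of the score, list length and window, H3K27me3 covered more summed bases in Myc-ESCs than in LIF-ESCs. The whole lists, which the window settings reuse, covered 0.69 and 3.81 Mb, and the score of 100 left 339 and 3378 peaks. The direction at these genes was therefore not separated from that of the lists.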
